A study of Mus musculus with 6 samples.

Results

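The 9 genes examined mark pericytes and vascular smooth muscle cells, the mural cells that wrap capillaries and larger vessels: Rgs5, Kcnj8, Abcc9, Acta2, Tagln, Myh11, Cspg4, Pdgfrb and Cnn1. The genes were chosen by symbol, out of 19321 named genes on the array. Each has 1 probe, and each probe was above background on 6 of 6 arrays. RNA came from cells sorted out of hind limb muscle of C57BL/6 mice, with 1 array for each of 3 populations at each of 2 ages. The populations are a mixture of CD31+ endothelial or CD45+ hematopoietic cells (called CD31_CD45 here), PDGFRa+ mesenchymal progenitors, which are interstitial cells able to form fibroblasts and fat cells, and satellite cells, the stem cells of the muscle fibre. Aged mice were 24 to 28 months old and young mice 8 to 10 weeks old. No group carries a transgene or a treatment in the labels, cells were pooled over repeated sorts, and no population was sorted for a mural cell marker.

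Mural cells lie against the endothelium and set the tone and stability of blood vessels. Smooth muscle cells hold an actin and myosin apparatus, to which Acta2 (smooth muscle alpha-actin), Myh11 (smooth muscle myosin heavy chain), Tagln (transgelin) and Cnn1 (calponin 1) belong. Pericytes sit on capillaries and are recruited by endothelial PDGF-B acting on the receptor encoded by Pdgfrb. Cspg4 encodes the surface proteoglycan NG2, Rgs5 encodes a regulator of G protein signalling, and Kcnj8 and Abcc9 encode the pore (Kir6.1) and the regulatory subunit (SUR2) of an ATP-sensitive potassium channel. Pdgfrb and Cspg4 are not restricted to mural cells and are known in other mesenchymal cells.

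Promoter sequences from RefSeq (GRCm38.p6) were matched to 6 of the 9 genes, and the 3 in which a searched motif was found are shown, as context for the genes whose levels went together below. Kcnj8 and Abcc9 are neighbours in that annotation. Each stretch runs from 250 bases before the annotated start to 20 bases after it, at chr6:142571595-142571864 for Kcnj8, chr6:142702255-142702524 for Abcc9 and chr19:34255354-34255623 for Acta2, all on the minus strand. Capitals mark TGGGAA, the core recognised by the Notch pathway factor RBPJ, and CATTCC, the M-CAT core recognised by TEAD factors, on either strand.
Kcnj8: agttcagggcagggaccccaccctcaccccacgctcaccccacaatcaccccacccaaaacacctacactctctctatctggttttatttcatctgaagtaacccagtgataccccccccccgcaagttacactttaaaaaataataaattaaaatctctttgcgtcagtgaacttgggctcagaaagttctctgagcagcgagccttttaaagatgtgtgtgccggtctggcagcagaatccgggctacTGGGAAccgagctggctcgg
Abcc9: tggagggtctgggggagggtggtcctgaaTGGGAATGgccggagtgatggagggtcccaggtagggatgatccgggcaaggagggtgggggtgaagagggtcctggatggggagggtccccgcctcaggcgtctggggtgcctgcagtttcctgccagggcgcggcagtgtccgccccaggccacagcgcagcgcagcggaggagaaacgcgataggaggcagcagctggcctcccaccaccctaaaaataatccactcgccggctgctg
Acta2: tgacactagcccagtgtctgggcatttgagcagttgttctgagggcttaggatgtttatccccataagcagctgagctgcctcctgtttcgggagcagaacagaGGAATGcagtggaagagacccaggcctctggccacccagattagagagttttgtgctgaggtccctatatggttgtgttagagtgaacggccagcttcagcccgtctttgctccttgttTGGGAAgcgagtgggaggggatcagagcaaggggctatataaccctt
Counting from 1 at the first base of the annotated transcript, TGGGAA lay at 1 to 6 in Kcnj8, at -221 to -216 in Abcc9 and at -27 to -22 in Acta2. In Acta2 the letters tatataa lie after that first base, so its positions follow the annotation and may differ from other numberings of this promoter. CATTCC lay on the opposite strand at -219 to -214 in Abcc9, where it overlaps TGGGAA, and at -146 to -141 in Acta2. TGGGAA was thus held by 3 and CATTCC by 2 of the 6 windows, against 25.6% and 14.7% of all 32851 promoter windows of the same length. The CArG box, the site of serum response factor, was in 0 of the 6 windows and in 1.63% of all windows in its exact form, CC, then 6 letters of A or T, then GG. Near matches were not counted, and the CArG elements through which the Acta2 promoter is known to bind this factor can differ from that form. The printed Acta2 stretch holds ccctatatgg and ccttgttTGG, each 1 letter off that form, and the latter overlaps the marked TGGGAA. The count of 0 thus covers exact matches only.

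Array quality was similar throughout: 88.4% to 92.3% of 23473 probes were above background. The defining markers followed the sort. Pecam1, which encodes CD31, read 2450.7 and 2464.8 on the aged and young CD31_CD45 arrays and at most 50.1 elsewhere, in the deposited intensity units. The arrays fall in 2 sets by the slope of the line that merged scanner gains (0.477 to 0.478 for both CD31_CD45 arrays and aged satellite, 0.465 to 0.466 for both PDGFRa+ arrays and young satellite). The satellite age pair therefore spans both sets, and no CD31_CD45 array shares a set with a PDGFRa+ array, so that set and population cannot be told apart between these except through the satellite pair. With 1 array per population and age there are no replicates: the tests between populations have age in the model, and take their error from what population and age together leave unexplained over all 6 arrays (2 residual degrees of freedom). Probes differ in brightness, so levels are compared within a gene only.

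In these sorts 7 of the 9 genes were brightest on a CD31_CD45 array, and the other 2, Cspg4 and Pdgfrb, on a PDGFRa+ array. The same 7 genes were dimmest on a PDGFRa+ array, and Cspg4 and Pdgfrb on the young satellite array. How many of all genes were brightest or dimmest on these arrays is not given here, so these counts describe the members only. Fewer cells of a type and less RNA per cell cannot be told apart in these pooled samples.

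**Figure D1:**
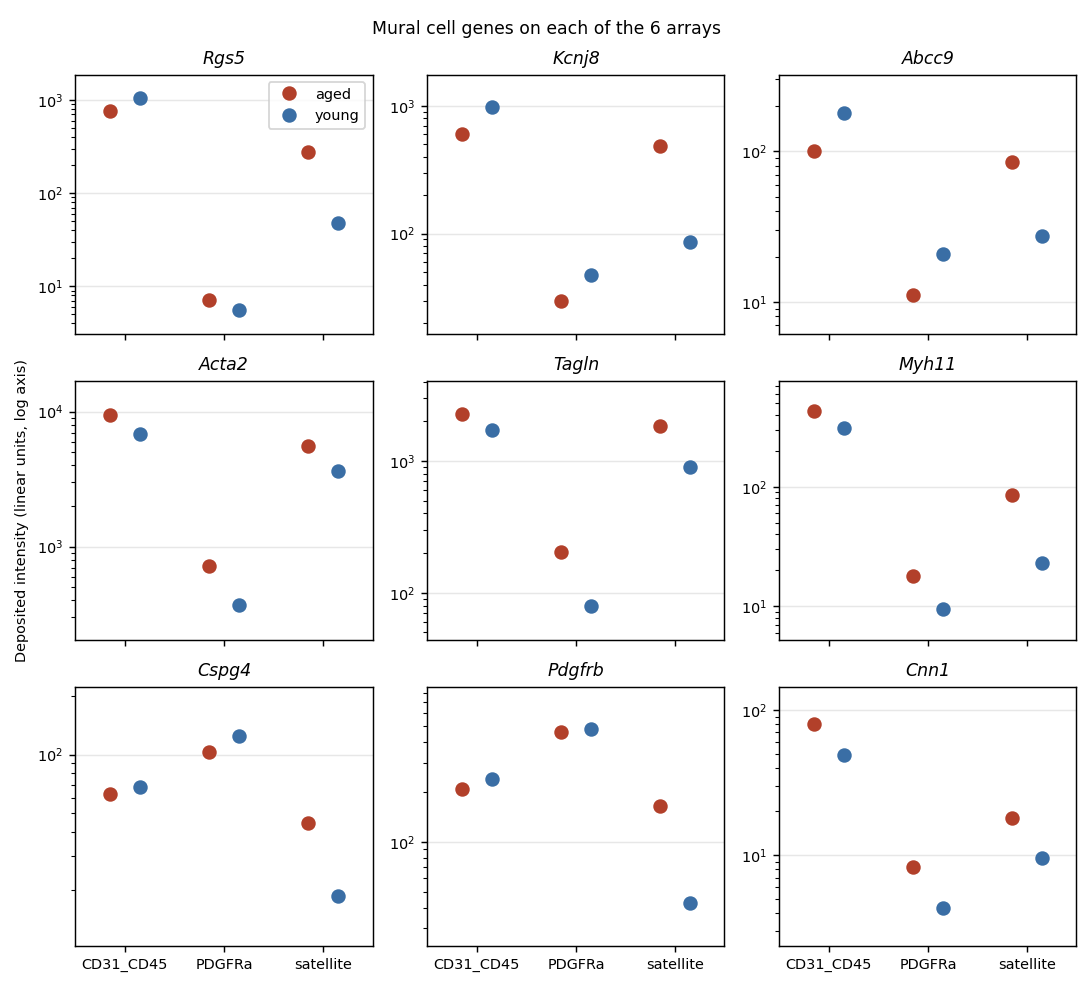
Deposited intensity (linear units on a log axis, scaled separately for each gene) of the 9 genes on the 6 arrays, aged arrays at the left and young arrays at the right of each population; each point is 1 array. Rgs5, Kcnj8 and Abcc9 are highest in young CD31_CD45 and much higher in aged than in young satellite cells, and Cspg4 and Pdgfrb are highest in PDGFRa+ cells.

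Rgs5 read 756.3 on the aged and 1039.1 on the young CD31_CD45 array, 7.2 on the aged and 5.6 on the young PDGFRa+ array, and 276.2 on the aged and 48.3 on the young satellite array. Kcnj8 read 605.6 and 974.9 on the aged and young CD31_CD45 arrays, 29.8 and 47.1 on the aged and young PDGFRa+ arrays, and 485.6 and 86.6 on the aged and young satellite arrays. Abcc9, the partner subunit of Kcnj8, read 100.5 and 179.4 on the aged and young CD31_CD45 arrays, 11.1 and 20.8 on the aged and young PDGFRa+ arrays, and 85.2 and 27.5 on the aged and young satellite arrays. In each of these genes both CD31_CD45 arrays were above all others, and the aged satellite array came next. Against their own highest array, the aged satellite array held 26.6% of the Rgs5 signal, 49.8% of the Kcnj8 signal and 47.5% of the Abcc9 signal, and the young satellite array 4.65%, 8.88% and 15.3%.

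Among the contractile genes, Acta2 and Tagln were bright in satellite cells as well. Acta2 read 9442.2 and 6787.9 on the aged and young CD31_CD45 arrays, 715.6 and 369.5 on the aged and young PDGFRa+ arrays, and 5553 and 3663.5 on the aged and young satellite arrays. Tagln, an actin-binding protein of smooth muscle, read 2269.6 and 1722.7 on the aged and young CD31_CD45 arrays, 204.6 and 79.4 on the aged and young PDGFRa+ arrays, and 1839.8 and 899 on the aged and young satellite arrays. For both genes, on the log2 scale, the satellite arrays lay nearer to the CD31_CD45 than to the PDGFRa+ array of the same age, and for Tagln the aged satellite array was above the young CD31_CD45 array. Myh11, the most restricted smooth muscle marker among them, read 430.1 and 308.1 on the aged and young CD31_CD45 arrays, 17.8 and 9.5 on the aged and young PDGFRa+ arrays, and 85.2 and 23 on the aged and young satellite arrays. Cnn1, which binds actin and restrains myosin, was dim, at 80.3 and 48.9 on the aged and young CD31_CD45 arrays, 8.3 and 4.3 on the aged and young PDGFRa+ arrays, and 18.1 and 9.5 on the aged and young satellite arrays. Both CD31_CD45 arrays exceeded all others for Myh11 and Cnn1.

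The surface genes ran the other way. Pdgfrb read 209.1 and 241.1 on the aged and young CD31_CD45 arrays, 464.1 and 483.5 on the aged and young PDGFRa+ arrays, and 164.7 and 42.4 on the aged and young satellite arrays. Cspg4 read 62.5 and 68.5 on the aged and young CD31_CD45 arrays, 103 and 124.4 on the aged and young PDGFRa+ arrays, and 44.4 and 18.7 on the aged and young satellite arrays. For both genes the order was PDGFRa+, then CD31_CD45, then satellite cells, with no overlap between populations. In the main fit below, neither gene was called between CD31_CD45 and PDGFRa+ cells or between CD31_CD45 and satellite cells. The share of all genes in this order is not given here. Over the 6 arrays the log2 values of Cspg4 and Pdgfrb correlated at r = 0.988, as did Kcnj8 and Abcc9 (0.988), and those of Acta2 and Tagln at 0.985 and of Myh11 and Cnn1 at 0.983. Between Tagln and Cspg4 r was -0.63. These values describe 6 arrays that share population and age.

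Between CD31_CD45 and PDGFRa+ cells 5 of the 9 genes rose, against 5.4% of all 18372 genes tested, and 0 fell, against 4.7% of all genes; the members' median log2 difference was 3.04 and that of all genes -0.012. A gene was called at an adjusted p under 0.05 (limma, Benjamini-Hochberg over all genes) and at least 2-fold. Log2 values come from the scanner files with an offset of 50, which compresses differences of dim genes. Acta2 was higher by 4.26 (SE 0.14, log2, adjusted p = 0.00155) and Tagln by 3.72 (SE 0.20, adjusted p = 0.00334). Rgs5 was higher by 4.52 (SE 0.67, adjusted p = 0.0215), Myh11 by 3.04 (SE 0.22, adjusted p = 0.00524) and Cnn1 by 1.25 (SE 0.087, adjusted p = 0.00504). Kcnj8 stood at 3.48 (95% interval 1.09 to 5.88, adjusted p = 0.0567) and Abcc9 at 1.73 (0.42 to 3.04, adjusted p = 0.0690), both outside the threshold. Pdgfrb stood at -0.94 (-2.28 to 0.40, adjusted p = 0.235) and Cspg4 at -0.57 (-1.18 to 0.049, adjusted p = 0.145).

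The calls differed in how they depended on single arrays. Rgs5 lost its call without any 1 of the 4 arrays compared (3.81 to 5.22), whereas Acta2, Tagln, Myh11 and Cnn1 kept theirs whichever array was left out; Kcnj8 and Abcc9 were called without either satellite array. With the scanner set as a block, which only the satellite pair can estimate, 4 genes were called: Acta2 (4.44) and Myh11 (2.37) higher, and Cspg4 (-1.24) and Pdgfrb (-2.40) lower in CD31_CD45 cells. In that fit Tagln (3.46) and Cnn1 (1.32) lost their calls at sizes near those above, and Rgs5 stood at 2.39, Kcnj8 at 0.86 and Abcc9 at 0.34, without a call. Using the local background of each spot, none of the 9 was called, although Acta2 (4.35), Tagln (3.53), Rgs5 (2.96) and Myh11 (2.44) were still apart; Cnn1 was at 0.34.

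**Figure D2:**
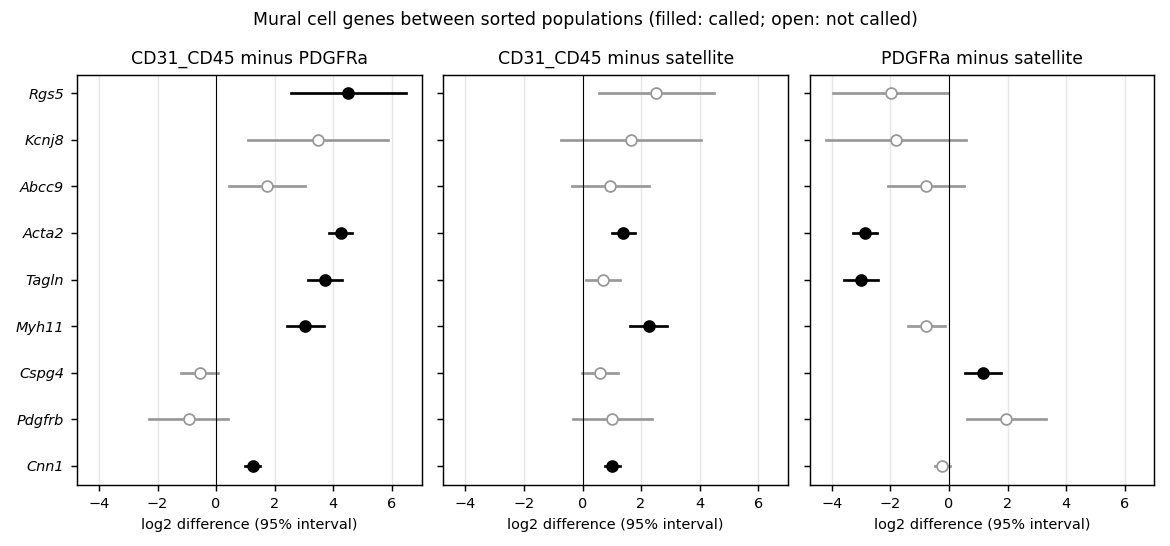
Log2 difference of each gene between populations, with its 95% interval from the fit over 6 arrays; filled points were called (adjusted p under 0.05 and at least 2-fold) and open grey points were not. The contractile genes have narrow intervals, and Rgs5, Kcnj8 and Abcc9 have wide ones.

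Between CD31_CD45 and satellite cells 3 of the 9 genes rose, against 6.57% of all genes, and 0 fell, against 5.12%; the members' median was 1.02 and that of all genes -0.022. They were Myh11 (2.26, SE 0.22, adjusted p = 0.00767), Acta2 (1.39, SE 0.14, adjusted p = 0.00792) and Cnn1 (1.02, SE 0.087, adjusted p = 0.0062). The remaining 6 were positive without a call: Rgs5 at 2.52 (0.55 to 4.49, adjusted p = 0.0652), Kcnj8 at 1.66 (-0.73 to 4.06), Pdgfrb at 1.02 (-0.32 to 2.36), Abcc9 at 0.95 (-0.36 to 2.26), Tagln at 0.70 (0.12 to 1.29) and Cspg4 at 0.60 (-0.012 to 1.22). Without the aged satellite array 6 genes were called, adding Rgs5 (3.58), Kcnj8 (2.97), Pdgfrb (1.75) and Abcc9 (1.65) and losing Cnn1 (0.99). Without the young satellite array Rgs5 (1.46) was added. Without the young CD31_CD45 array 1 gene remained called, Cnn1, and without the aged one Myh11 and Cnn1 lost their calls and Tagln (1.02) gained one. Within the scanner set that holds both aged arrays, aged CD31_CD45 less aged satellite was 1.34 for Rgs5, 0.26 for Kcnj8, 0.15 for Abcc9, 0.41 for Tagln, 0.27 for Cspg4, 0.23 for Pdgfrb, 1.97 for Myh11, 1.37 for Acta2 and 1.13 for Cnn1, as single arrays. None of the 9 was called with the local background (Myh11 1.95, Acta2 1.35, Cnn1 0.32).

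Between PDGFRa+ and satellite cells 2 of the 9 genes fell, against 3.2% of all genes, and 1 rose, against 4.09%. Tagln fell by 3.02 (SE 0.20, log2, adjusted p = 0.00819) and Acta2 fell by 2.87 (SE 0.14, adjusted p = 0.00596), and Cspg4 rose by 1.17 (SE 0.21, adjusted p = 0.0367). Pdgfrb stood at 1.96 (0.62 to 3.30, adjusted p = 0.0613), Rgs5 at -2.00 (-3.96 to -0.031, adjusted p = 0.127) and Kcnj8 at -1.82 (-4.22 to 0.58, adjusted p = 0.217). The other 3 were Myh11 at -0.78, Abcc9 at -0.78 and Cnn1 at -0.23. No gene of the array was called without the young or without the aged PDGFRa+ array, where Tagln stood at -2.83 and -3.21 and Acta2 at -2.66 and -3.08. None of the 9 was called with the local background either (Tagln -2.60, Acta2 -3.00, Cspg4 0.67). Without the young satellite array 6 members were called, among them Rgs5 (-3.06), Kcnj8 (-3.13), Myh11 (-1.12) and Pdgfrb (1.23), and Cspg4 (0.84) was not. Cspg4 also lost its call without either CD31_CD45 array (1.17), and Pdgfrb gained one without the aged satellite array (2.69). Within the scanner set that holds both young arrays, young PDGFRa+ less young satellite was -3.06 for Tagln, -3.07 for Acta2, 2.63 for Pdgfrb and 1.50 for Cspg4. It was -1.05 for Rgs5, -0.60 for Kcnj8, -0.40 for Myh11, -0.18 for Abcc9 and -0.19 for Cnn1. For Rgs5, Kcnj8, Myh11, Abcc9 and Cnn1 these values were smaller in size than in the fit, for Cnn1 only slightly. For Tagln, Acta2, Pdgfrb and Cspg4 they were larger, for Tagln only slightly.

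Other genes of these cells showed where the pattern extended. Of 18 further pericyte genes on the array, 7 rose and 3 fell in CD31_CD45 relative to PDGFRa+ cells (median 0.15). Higd1b, a mitochondrial protein gene used as a pericyte marker, stood at 3.14, Mcam, which encodes the adhesion molecule CD146, at 2.60, Gucy1a1, a subunit of the nitric oxide receptor, at 2.08 and Art3 at 2.01. The 3 that fell were P2ry14 (-1.63), Anpep (-1.29) and Notch3 (-1.13). Notch3 read only 12.7 and 14.9 on the aged and young CD31_CD45 arrays. Relative to satellite cells 6 rose and 4 fell (median 0.38), where Art3 (1.94) and Mcam (1.84) were higher and Des (-3.05), the muscle intermediate filament, and P2ry14 (-2.40), a nucleotide sugar receptor, were lower. Anpep (-1.12) and Notch3 (-1.06) were the other genes that fell. Between PDGFRa+ and satellite cells 1 rose, Enpep (2.03), and 1 fell, Des (-4.22). The list is thus divided. Of all genes 5.4% rose and 4.7% fell in the first of these comparisons, 6.57% and 5.12% in the second, and 4.09% and 3.2% in the third, shares against which the lists that follow can be read too. All genes had medians of -0.012, -0.022 and -0.0088 in the 3 comparisons.

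Of 25 further smooth muscle contractile genes, 8 rose and 1 fell in CD31_CD45 relative to PDGFRa+ cells (median 0.38). Sncg, which encodes gamma-synuclein, stood at 4.0, Pcp4l1 at 3.32, the calcium store protein gene Casq2 at 2.58 and Tpm2, beta-tropomyosin, at 2.24. Relative to satellite cells 10 rose and 1 fell (median 0.70), with Pcp4l1 at 3.30, Sncg at 3.09, Mustn1 at 2.72 and Casq2 at 2.43. Fhl1 was the gene that fell in both. Between PDGFRa+ and satellite cells 3 rose: Ramp1 (2.88), a co-receptor for the vasodilator peptide CGRP, Mustn1 (2.35) and Synm (1.02). Genes of this list, which also holds genes outside the contractile apparatus such as Ramp1, therefore differed in where they were high.

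Of 14 regulators of smooth muscle genes, 1 rose and 1 fell in CD31_CD45 relative to PDGFRa+ cells, 3 rose and 3 fell relative to satellite cells, and 1 rose and 2 fell in PDGFRa+ relative to satellite cells. Mef2c, a muscle and vascular transcription factor, was higher in CD31_CD45 than in PDGFRa+ cells (1.99), and the LIM protein gene Csrp2 was lower (-1.66). Against satellite cells, Mef2c (2.49), Gata6 (1.50) and Foxc1 (1.11) rose, and Heyl (-3.29), Srf (-1.25) and Tead1 (-1.08) fell in CD31_CD45 cells. Heyl is a Notch target and Srf the factor that binds CArG boxes. Between PDGFRa+ and satellite cells Csrp2 (1.29) rose, and Heyl (-3.30) and Srf (-1.39) fell.

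Of 18 genes that carry signals between endothelium and mural cells, 9 rose and 1 fell in CD31_CD45 relative to PDGFRa+ cells (median 1.12), and 9 rose and 0 fell relative to satellite cells (median 1.46). S1pr1, a receptor for sphingosine phosphate on endothelium, stood at 6.20 and 5.47 in these comparisons, Nos3, endothelial nitric oxide synthase, at 4.12 and 3.66, and the Notch ligand gene Dll4 at 2.79 and 2.89. Ednrb, an endothelin receptor gene, stood at 2.70 against PDGFRa+ cells, and its ligand gene Edn1 at 3.76 against satellite cells. Between PDGFRa+ and satellite cells 3 rose, Tgfbr2 (2.54), Agtr1a (2.06) and Edn1 (1.22), and 2 fell, S1pr3 (-1.37) and Hbegf (-1.15).

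Paralogues of the members were divided: of 18, 5 rose and 1 fell in CD31_CD45 relative to PDGFRa+ cells, 2 rose and 2 fell relative to satellite cells, and 1 rose and 5 fell in PDGFRa+ relative to satellite cells. Skeletal Acta1 was lower in PDGFRa+ than in satellite cells (-3.01) and cardiac Actc1 was lower in CD31_CD45 (-1.85) and in PDGFRa+ cells (-1.97) than in satellite cells. Actg2, the enteric smooth muscle actin, was not called in any of the 3 comparisons, nor were the cytoplasmic actins Actb and Actg1. Cnn2 rose in CD31_CD45 relative to PDGFRa+ (1.78) and satellite cells (2.29), and Cnn3 fell relative to satellite cells (-1.10). The non-muscle myosin gene Myh9 rose in CD31_CD45 relative to both (1.46 and 1.10). The Rgs5 relatives Rgs2 (2.17), Rgs4 (1.94) and Rgs16 (1.58) rose in CD31_CD45 relative to PDGFRa+ cells and were not called relative to satellite cells. Kcnj11 and Abcc8, the other channel pair of the family, were dim, at 22.5 to 34.4 and 4.1 to 9 over the 6 arrays, and were not called. Pdgfra, the receptor of the sort, read 4149 and 5700.4 on the aged and young PDGFRa+ arrays and at most 60.6 on the other 4. Sequence similarity among actins may let a probe read more than 1 of them, and this was not tested.

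The genes most like Rgs5 over the 6 arrays, by Pearson correlation of log2 values among 1501 genes with a log2 range of at least 2, were Myo18a (0.988), Higd1b (0.987), Pfkfb3 (0.986), Kcnj8 (0.986) and Lbr (0.979). Those most like Myh11 were Cbfa2t3 (0.996), Rasl11a (0.994), Tpm2 (0.992), Sncg (0.992) and Nes (0.991). Higd1b read 312.7 and 298.2 on the aged and young CD31_CD45 arrays, 4.8 and 2.7 on the aged and young PDGFRa+ arrays, and 156.7 and 12.7 on the aged and young satellite arrays. It was picked here by its likeness to Rgs5 over these same arrays, so a shared aged satellite level is no separate result. On the aged and young satellite arrays Myo18a read 314.8 and 215.8, Pfkfb3 127.1 and 85.7, and Lbr 170.7 and 126.5.

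Age was compared first as a difference common to the 3 populations. By limma 0 of the 9 genes were called, against 0% of all 18372 genes in either direction, and 2026 genes (11%) had an unadjusted p under 0.05. Of the members 4 had one: Acta2 (0.72, SE 0.11), Tagln (0.89, SE 0.16), Cnn1 (0.30, SE 0.071) and Myh11 (0.62, SE 0.18). Their adjusted p by limma was 0.328 to 0.403. These are the 4 contractile genes, and each was higher on the aged array in 3 of 3 populations, 12 of 12 pairs in all. With the local background of each spot 4 of those 12 turned negative: Acta2 in CD31_CD45 (-0.59) and satellite cells (-0.41), and Myh11 in CD31_CD45 (-0.35) and PDGFRa+ cells (-0.084). The 12 pairs are not independent, since the same arrays serve all 4 genes. Genes with a small p in this fit also tend to agree in direction across populations. The share of all genes higher in 3 of 3 populations is not given here. The other 5 genes were higher in some pairs and lower in others, with age differences from 0.031 (Abcc9) to 0.57 (Rgs5) and adjusted p = 0.705 to 0.982 by limma. Without either satellite array, Rgs5 (-0.14), Kcnj8 (-0.43), Abcc9 (-0.43), Cspg4 (-0.080) and Pdgfrb (-0.024) turned negative.

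**Figure D3:**
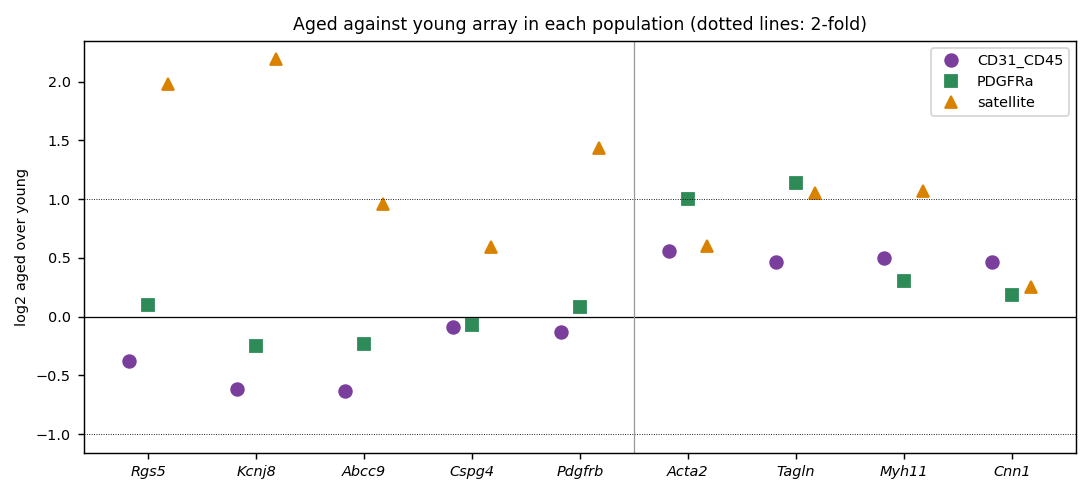
Log2 aged over young of each gene in each population, 1 array against 1 array; dotted lines mark 2-fold, and the vertical line parts the contractile genes at the right from the other 5. All 9 genes lie above 0 in satellite cells, and the 5 genes at the left lie below 0 in CD31_CD45 cells.

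In satellite cells 9 of 9 genes were higher on the aged array, where 43.9% of all 18024 genes above background were, and 5 of 9 were at least 2-fold higher, against 1.13% of all genes. None was lower, where 55.9% of all genes were, 0.0999% by at least 2-fold. The members' median log2 difference was 1.06 and that of all genes -0.015. Kcnj8 had 2.19, Rgs5 1.98, Pdgfrb 1.44, Myh11 1.07 and Tagln 1.06, followed by Abcc9 (0.96), Acta2 (0.60), Cspg4 (0.59) and Cnn1 (0.26). In deposited intensity the ratio of aged to young ran from 1.52 (Acta2) to 5.72 (Rgs5), with 5.61 for Kcnj8, 3.88 for Pdgfrb, 3.70 for Myh11 and 3.10 for Abcc9. From the deposited values, or with an offset of 10, 7 genes passed 2-fold, adding Abcc9 and Cspg4. With the local background Kcnj8 and Tagln passed, and Rgs5 (-0.26) and Pdgfrb (-0.15) turned negative. This pair has no test, and in it age and scanner set cannot be told apart.

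Several marker lists of other cell types were also higher on the aged satellite array. The summed intensity of 7 mesenchymal progenitor markers was 8477 on the aged and 5841.1 on the young array, with 6 of 7 higher and a median log2 of 1.00. For 8 myofibre markers the sums were 5136.4 and 2872.1 (8 of 8 higher, median 0.95), and for 8 hematopoietic markers 132.1 and 62.4 (7 of 8 higher, median 0.088). The 10 endothelial markers summed to 689.7 on the aged and 690.7 on the young array (median 0.071), the 3 glial markers to 293 and 224.9, and the 8 satellite cell markers to 15796.8 and 21546.7 (6 of 8 lower, median -0.17). Mesenchymal, myofibre, glial and hematopoietic sums were thus higher beside the mural genes, and the endothelial sum was nearly the same. Most of the mesenchymal difference in the sums was Dcn, at 2544 on the aged and 453.6 on the young array. Most of the hematopoietic difference was Cd74, at 57.1 on the aged and 6.9 on the young array, and of the glial markers 2 of 3 were higher (median 0.50). No defining marker of these lists was below background on either satellite array, and the part of the markers in the result was not tested.

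Further genes of the mural lists followed in part. In the satellite pair 13 of 18 further pericyte genes were higher (median 0.38), and 3 were at least 2-fold: Higd1b (2.09), Vtn (1.16) and Steap4 (1.10). Of 25 further contractile genes 18 were higher (median 0.23), and 5 at least 2-fold: Aoc3 (1.68), Mustn1 (1.45), Ramp1 (1.30), Tpm1 (1.13) and Tpm2 (1.09). Notch3 (-0.15) and Rgs4 (-0.26) were among those that were lower. Some of the genes that rose are bright in PDGFRa+ cells too. Ramp1 read 452.6 on the young PDGFRa+ and 6.2 on the young satellite array, and Mustn1 620.5 and 41.7. Aoc3 (329.6 and 23.7), Steap4 (230.1 and 9.2) and Tpm1 (904.2 and 700.7) were also brighter there. Higd1b, Vtn and Tpm2 were dimmer on the young PDGFRa+ array. The part of PDGFRa+ cells in these rises was not tested. Of the signalling genes 16 of 18 were higher (median 0.13), with Angpt2 (1.25), which encodes an angiopoietin, the 1 at 2-fold. Among paralogues Cnn2 (1.51) and Pdgfra (1.19) passed 2-fold. These genes of the age pairs were named after their values were seen.

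In CD31_CD45 cells 4 of the 9 genes were higher and 5 lower on the aged array, close to the shares of all genes. This pair has no test. The signs went by role, and those of Pdgfrb and Cspg4 rest on small values. The 4 contractile genes were higher on the aged array, where 43.6% of all 18090 genes were, at 0.56 for Acta2, 0.50 for Myh11, 0.47 for Tagln and 0.47 for Cnn1. The other 5 were lower, as were 56.3% of all genes, at -0.63 for Abcc9, -0.61 for Kcnj8, -0.38 for Rgs5, -0.13 for Pdgfrb and -0.084 for Cspg4. Acta2 (-0.59) and Myh11 (-0.35) were lower with the local background, and Rgs5 (0.90) and Abcc9 (0.43) were higher. In deposited intensity the aged to young ratio was 1.32 to 1.64 for the contractile genes and 0.560 to 0.912 for the others. None of the 9 reached 2-fold, where 0.514% of all genes were at least 2-fold higher and 0.0663% lower; with the local background Kcnj8 did (-1.17). Of 25 further contractile genes 20 were higher (median 0.23), with Sncg (1.04) at 2-fold, and of 18 further pericyte genes 10 were (median 0.038). The 10 endothelial markers summed to 23455.6 on the aged and 30813.2 on the young array (8 of 10 lower, median -0.26), and the 8 hematopoietic markers to 10643.3 and 9137.5 (7 of 8 higher, median 0.53). The 7 mesenchymal progenitor markers summed to 1182.7 on the aged and 2093 on the young array (6 of 7 lower, Cd34 at -1.01), the 8 myofibre markers to 701.8 and 920 (6 of 8 lower), the 3 glial markers to 136.9 and 182 (3 of 3 lower) and the 8 satellite cell markers to 726.8 and 705.2 (7 of 8 lower, Chodl at -1.21). Most of the difference in the mesenchymal sum was Cd34, at 785.9 on the aged and 1650.7 on the young array. Cd34 was also bright on the aged and young satellite arrays (1242.8 and 1564), so it was not particular to PDGFRa+ cells. Dcn read 247.7 and 266.5 and Dpt 63.1 and 80.4 on the aged and young CD31_CD45 arrays. The lower sum therefore cannot be read as lower mesenchymal content. Both arrays of this pair lie in 1 scanner set, and the part of the markers was not tested.

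In PDGFRa+ cells Tagln (1.13) and Acta2 (1.00) were at least 2-fold higher on the aged array, 2 of 9 genes against 0.263% of all genes, and 0 were 2-fold lower, against 0.162%. Myh11 had 0.31 and Cnn1 0.18, and in deposited intensity the aged to young ratio of the 4 contractile genes was 1.87 to 2.58. Kcnj8 stood at -0.25, Abcc9 at -0.23 and Cspg4 at -0.075, Rgs5 at 0.095 and Pdgfrb at 0.082, so 6 of 9 were higher and 3 lower, against 49.2% and 50.7% of all 17876 genes. In deposited intensity the ratio for these 5 genes was 0.534 (Abcc9) to 1.29 (Rgs5), with 0.633 for Kcnj8 and 0.828 for Cspg4, and 0.960 for Pdgfrb, on the other side of 1. Acta2 was just under 2-fold with median scaling (0.98) and with the deposited table (0.95), and with the local background neither gene passed. Of 25 further contractile genes 19 were higher (median 0.11), none at 2-fold, and of 18 further pericyte genes Art3 (1.10) was. The 3 glial markers summed to 489.5 on the aged and 251.6 on the young array (3 of 3 higher), the 10 endothelial markers to 569.6 and 532.2, the 7 mesenchymal progenitor markers to 54806.3 and 65210.1 (6 of 7 lower), the 8 hematopoietic markers to 108.6 and 93.8, the 8 myofibre markers to 182.7 and 387 (7 of 8 lower) and the 8 satellite cell markers to 447.7 and 689.8. Pax7 was below background on both PDGFRa+ arrays and Cdh15 on the aged one. Both arrays lie in 1 scanner set, and the part of the markers was not tested.

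**Figure D4:**
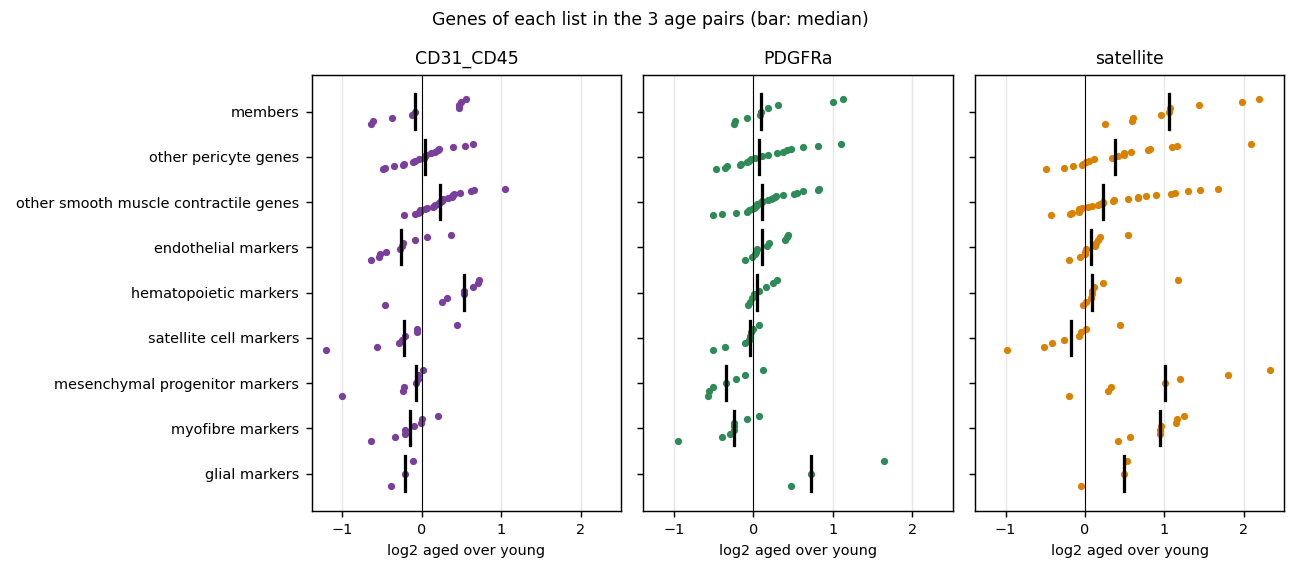
Log2 aged over young of each gene of 9 lists in the 3 populations, 1 array against 1 array; points are genes on the array and bars are list medians. In satellite cells the members, mesenchymal progenitor and myofibre lists have medians between 0.95 and 1.06 and the endothelial markers 0.071.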

How the data were processed

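RNA was amplified with amino allyl nucleotides and labelled with Cy5, per the labels' protocols, and hybridised to 6 one-colour arrays. Per the file headers, the authors' scanner files give the median intensity at 635 nm of 27456 spots, merged over 3 gains. A second deposited table gives linear intensity with a median of 25 on every array. Subtracting the trimmed mean of 2736 blank spots from the spot medians and multiplying by 1 factor per array returned those values within 0.0938; cells near or below background are empty. How the table was made is not given in the sources used here.

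Spot medians were corrected here with normexp (blank-spot mean as background, offset 50), quantile normalised and tested on the log2 scale with limma 3.58.1 in R 4.3.3. The model had population and age as terms (2 residual degrees of freedom, prior 1.50), two-sided. Symbols came from the platform annotation for 20690 probes; the other 2783 were not used. Of several probes the brightest by mean deposited intensity, empty cells as 0, was taken. The 18372 genes above background on at least 2 arrays were tested. The fit was tested on simulated data. Named were the 9 members, up to 4 called genes per other list and comparison by size, their paralogues, the 5 genes most like Rgs5 and Myh11, and sort markers. Genes completing a count of 5 or fewer were named after their values were seen. Members and lists were chosen with earlier results of these data known. The alternatives were local or no background, offset 10, log2 of the deposited intensity plus 1, median scaling, no filter, the mean of all probes, leaving out each array, and the scanner set as a block. The number of arrays limits the precision.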

Additional observations from a re-analysis of the deposited data

Results flagged for a closer look

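Age differences of opposite sign between populations, at least 1 apart on the log2 scale, were found for 4 of the 9 genes. Each rests on 1 aged and 1 young array per population, and the difference was not tested. The share of all genes that meet this rule is not given here. All 4 involve the satellite pair. In it 1.13% of all genes were at least 2-fold higher, against 0.514% in CD31_CD45 and 0.263% in PDGFRa+ cells. Kcnj8 was at 2.19 in satellite and -0.61 in CD31_CD45 cells, 2.80 apart, and at -0.25 in PDGFRa+ cells, 2.44 below the satellite value. Rgs5 was at 1.98 in satellite and -0.38 in CD31_CD45 cells, 2.36 apart. Abcc9 was at 0.96 in satellite and -0.63 in CD31_CD45 cells, 1.60 apart, and at -0.23 in PDGFRa+ cells, 1.19 below the satellite value. Pdgfrb was at 1.44 in satellite and -0.13 in CD31_CD45 cells, 1.57 apart. With the local background Rgs5 turned to -0.26 in satellite and 0.90 in CD31_CD45 cells, Abcc9 to 0.43 in CD31_CD45 and 0.12 in PDGFRa+ cells, and Pdgfrb to -0.15 in satellite cells, so that of these only the Kcnj8 and Rgs5 signs stayed opposite, for Rgs5 the other way round. The satellite pair spans both scanner sets and the other pairs do not.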

How the results depend on the processing

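No paired analysis was possible because each population and age has 1 array and the labels give no replicate numbers. Members called between CD31_CD45 and PDGFRa+ cells were 5, and 4 to 7 over the left-out arrays; between CD31_CD45 and satellite cells 3, and 1 to 6; between PDGFRa+ and satellite cells 3, and 0 to 6. With the local background all 3 counts were 0, while Acta2 and Tagln differences between CD31_CD45 and PDGFRa+ cells (4.35 and 3.53) and between PDGFRa+ and satellite cells (-3.00 and -2.60) stayed near their sizes; that column followed the signal of its own spot (r of logs across spots 0.961 to 0.980). Between PDGFRa+ and satellite cells the deposited values gave 7, a smaller offset (10) gave 6 and leaving the background in gave 6. Members at least 2-fold apart in the age pairs were 0 in CD31_CD45 (1 with the local background), 2 in PDGFRa+ (0 with the local background, 1 with the deposited table, 1 with median scaling) and 5 in satellite cells (2 with the local background). Without either satellite array, and with the scanner set as a block, the common age difference turned to -0.14 for Rgs5, -0.43 for Kcnj8, -0.43 for Abcc9, -0.080 for Cspg4 and -0.024 for Pdgfrb, since the satellite pair then no longer enters it; over the left-out arrays the highest values were 1.04, 0.97, 0.36, 0.26 and 0.76 for these genes in that order. It turned to -0.027 for Abcc9 with the deposited table, and with the local background to -0.083 for Acta2, -0.10 for Cspg4 and -0.32 for Pdgfrb. In the satellite pair the local background turned Rgs5 to -0.26 and Pdgfrb to -0.15. Of the 27 age-pair values 10 turned sign with the local background, 1 with the deposited table and 0 in the other settings that keep all arrays. The cause was not tested. Over all genes, calls between CD31_CD45 and PDGFRa+ cells were 1857 (289 with the local background, 2945 with an offset of 10, 3790 with the deposited table, 835 with the scanner block, 1131 without the young PDGFRa+ array), between CD31_CD45 and satellite cells 2147 (342, 3382 and 4429 with the first 3 of these), and between PDGFRa+ and satellite cells 1339 (68, 2213 and 2981, and 0 without either PDGFRa+ array). The age call count over all genes was 0 in every fit run. Dim genes such as Cnn1 and Abcc9 are limited by signal over background.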
